A study of Mus musculus with 8 samples.

Results

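The nuclear genes of oxidative phosphorylation were examined in mouse CD8+ T cells from co-cultures with the LXR agonist RGX-104. They were taken from the deposited table by symbol: Nduf genes of the a, b, c, s and v series, the 4 Sdh genes, Uqcr genes, Cyc1, Cycs, Cox4 to Cox8 genes and Atp5 genes, leaving out pseudogene names and symbols with an appended number. Of 41730 rows in the table, 99 matched, and 87 of these held 10 or more counts in at least 4 of the 8 columns and were kept. The kept rows comprise 36 genes of complex I, 4 of complex II, 8 of complex III, cytochrome c, 14 of complex IV, 16 of complex V and 8 Ndufaf genes. The last group matches the symbol rule but encodes assembly factors of complex I, which are not part of the finished enzyme, so it is given separately from the 79 subunit genes.

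RNA came from 4 libraries of OT-I T cells exposed to 2 µM RGX-104 (replicates 5 to 8) and 4 libraries exposed to the solvent DMSO (control, replicates 1 to 4). RGX-104 activates LXR, the liver X receptors, which sense oxidised forms of cholesterol in the nucleus. All cells carried the OT-I transgenic T cell receptor, which recognises the ovalbumin peptide SIINFEKL, and all met this peptide on dendritic cells derived from bone marrow before they were purified by flow cytometry. The agonist was present in the whole co-culture, so T cells and dendritic cells were both exposed. The labels give neither the age of the mice nor the time in culture, and nothing says that the libraries of a group came from separate mice or cultures. The p-values below therefore reflect the spread among these libraries, which may be technical. In bulk samples, fewer cells of a type and less RNA per cell cannot be told apart.

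Oxidative phosphorylation takes place in the inner mitochondrial membrane. Complexes I and II pass electrons from NADH and succinate to ubiquinone, complex III passes them to cytochrome c, and complex IV to oxygen; complexes I, III and IV pump protons, and complex V, the ATP synthase, uses their return to make ATP. Most subunits are encoded in the nucleus, while a small set of core subunits is encoded by the mitochondrial genome. Activated T cells build up mitochondrial mass as they grow, and also rely on glycolysis.

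Library totals were 13144704 to 14947537 counts in RGX-104 and 14867824 to 15966972 counts in control. Of 11 listed CD8 T cell markers 10 passed the count filter, with Cd8a at 397 CPM in RGX-104 and 276 CPM in control (CPM stands for counts per 1000000 after scaling for library composition; in these 3′ end libraries it is not divided by transcript length, so levels of different genes are not ranked). The remaining marker, Cd2, is listed at 0 in all libraries, as are H2-Aa, H2-Ab1 and H2-Eb1 of the dendritic cell list; symbols at 0 are not read as absent RNA. The 11 CD8 T cell markers summed to 2215 to 2284 CPM in RGX-104 and 1878 to 1915 CPM in control. Of the 10 tested, edgeR called 4 higher (Cd8a, Cd8b1, Thy1 and Lat), where 0.888% of all genes tested were. Cd3g was not called. Cd3d, Cd3e, Lck, Zap70 and Cd5 were not called and overlapped between the groups, with log2 fold changes from 0.01 (Cd5) to 0.15 (Cd3e). The part of these marker differences in the results below was not tested. The 16 dendritic cell markers summed to 594 to 705.5 CPM in RGX-104 and 613 to 681 CPM in control, mostly Ccr7, which T cells also express. Summed levels of the 11 macrophage markers ran from 47.8 to 55.9 CPM in RGX-104 and from 43.2 to 50.5 CPM in control. Of the defining dendritic cell markers, Itgax was at 1.66 CPM in RGX-104 and 1.11 CPM in control, and Flt3 at 0.480 CPM in RGX-104 and 0.874 CPM in control. Among all genes tested, 50.6% had a log2 fold change above 0, and at an unadjusted edgeR p under 0.05, 7.52% were lower and 6.28% higher. Of the 10 dendritic cell markers tested, 0 were called by edgeR and 7 had a log2 fold change below 0 (median -0.26). At the same unadjusted p, 3 were lower and 0 higher. These 3, chosen after their values were seen, were Ccl22 (1.61 CPM in RGX-104 and 3.66 CPM in control, log2 fold change -1.18, edgeR adjusted p 0.165), Fscn1 (2.37 CPM in RGX-104 and 4.23 CPM in control, -0.83, adjusted p 0.224) and Batf3 (58.6 CPM in RGX-104 and 72.0 CPM in control, -0.30, adjusted p 0.0612). The groups did not overlap for Ccl22 and Batf3, where RGX-104 was lower, and 4.32% of all genes tested were apart in that direction. Which cells the RNA of these markers came from was not tested, nor was their part in the results below. Mitochondrial rRNA (mt-Rnr1 and mt-Rnr2) took 4.84%, 4.52%, 4.05% and 3.99% of counts in RGX-104 replicates 5 to 8, and 4.95%, 4.72%, 4.66% and 4.59% in control replicates 1 to 4.

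None of the genes for subunits of complexes I to V or for cytochrome c passed the test across all genes for a difference with RGX-104, while 1 complex I assembly factor, Ndufaf4, rose. Of these 79 subunit genes, 0 were called higher and 0 lower at an adjusted p under 0.05 (edgeR's quasi-likelihood test with Benjamini-Hochberg adjustment over 12162 genes). Among all genes tested, 0.888% were called higher and 1.78% lower, 2.66% in all. At an unadjusted p under 0.05, 8 subunit genes were higher and 0 lower, while 6.28% of all genes were higher and 7.52% lower at that level. Among genes averaging at least 20 CPM, 8 of 73 subunit genes were higher and 0 lower by the same p. Of all 6129 such genes, 616 were higher and 558 lower. DESeq2 called 1 subunit gene, Cox5a, higher and limma-voom called 0, where DESeq2 called 3.66% and limma-voom 2.66% of all genes they tested. The median log2 fold change of the subunit genes was 0.03, with quartiles of -0.02 and 0.10, beside a median of 0.00 and quartiles of -0.145 and 0.128 for all genes tested.

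The measured differences were small and, for most subunits, narrowly bounded. For 68 of the 79 subunit genes (86.1%) the 95% interval of the fold change lay within 1.25-fold in both directions. That share was 30.7% of all genes tested. Intervals narrow with the level of a gene, so genes averaging at least 20 CPM make a closer comparison: here 68 of 73 subunit genes (93.2%) and 60.6% of all such genes had an interval inside these bounds. The median level there was still 162.6 CPM for the subunit genes and 64.05 CPM for all such genes. The 2 shares are therefore not matched for level. The 11 subunit genes with wider or offset intervals were Ndufb2, Ndufb4, Ndufs5, Sdhd, Uqcrfs1, Cox6a2, Cox6b2, Cox7a1, Atp5g2, Atp5j and Atp5l.

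**Figure D1:**
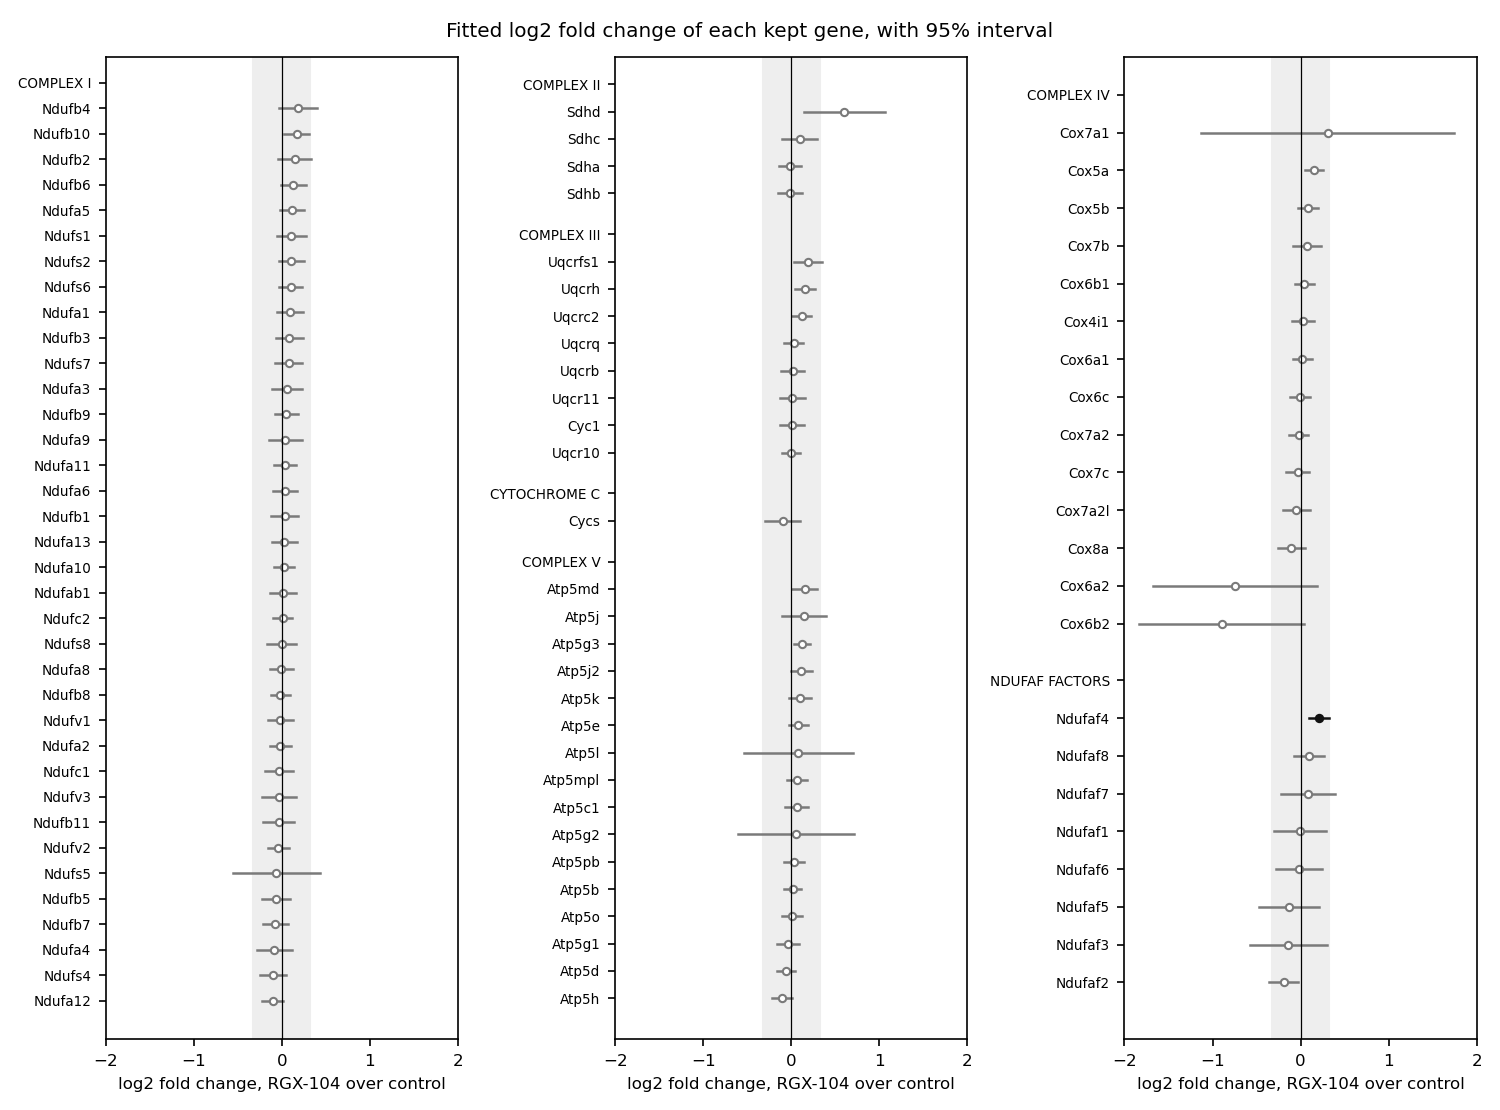
Fitted log2 fold change (RGX-104 over control, x axis) of each of the 87 kept genes, grouped by complex, with its 95% interval as a line; the grey band marks 1.25-fold in either direction. Ndufaf4, the filled point, is the 1 gene past the adjusted threshold, and most intervals of complex I lie inside the band, while Sdhd, Cox6a2, Cox6b2 and Cox7a1 have wide ones.

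**Figure D2:**
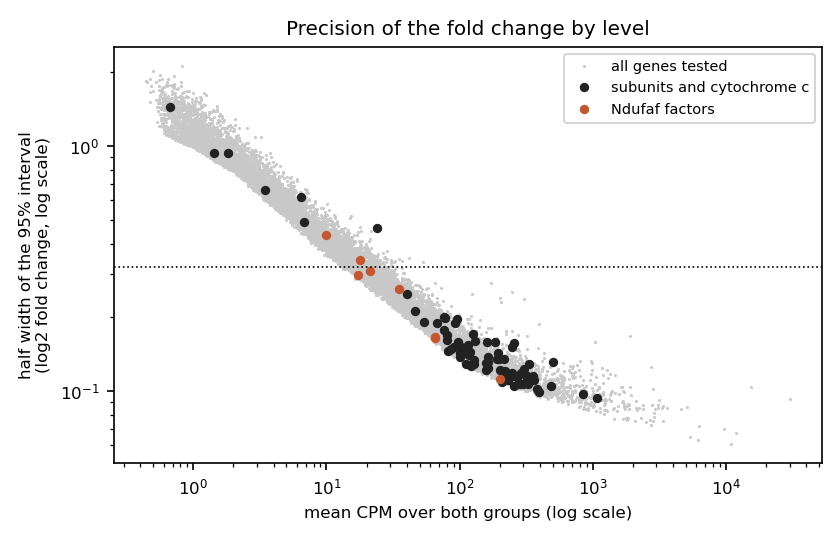
Distance from the estimate to either end of the 95% interval of the log2 fold change (y axis, log scale) against mean CPM over both groups (x axis, log scale), for all genes tested (grey), subunit genes with cytochrome c (black) and Ndufaf factors (orange); the dotted line is 0.32, the log2 of 1.25-fold. Subunit genes follow the band of all genes, apart from Sdhd, which lies above it at a mean of 24.1 CPM.

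Promoter windows are shown for Ndufaf4, the gene that was called, and Sdhd, the subunit gene with the largest positive log2 fold change, because both carry a match to a core of the motif of nuclear respiratory factor 1 (NRF1), a transcription factor known for binding promoters of respiratory chain genes. Each line gives the 250 bases before the annotated start of transcription in RefSeq (build GRCm38.p6), 5′ to 3′ on the gene's strand, with the matched bases in capitals. The Ndufaf4 window is chr4:24897833-24898082 on the plus strand; matches on both strands overlap there, from bases 138 and 139. The Sdhd window is chr9:50603850-50604099 on the minus strand, with its match from base 173.
Ndufaf4: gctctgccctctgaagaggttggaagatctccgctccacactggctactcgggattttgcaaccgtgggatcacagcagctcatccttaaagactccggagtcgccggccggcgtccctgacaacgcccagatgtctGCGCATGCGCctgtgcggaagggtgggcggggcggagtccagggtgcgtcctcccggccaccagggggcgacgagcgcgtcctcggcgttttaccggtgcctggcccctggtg
Sdhd: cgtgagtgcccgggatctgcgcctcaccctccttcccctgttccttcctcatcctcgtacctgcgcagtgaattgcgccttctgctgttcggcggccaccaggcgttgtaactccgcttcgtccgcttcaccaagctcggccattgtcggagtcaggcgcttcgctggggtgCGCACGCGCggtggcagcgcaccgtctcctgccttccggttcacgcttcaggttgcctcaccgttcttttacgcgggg

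Windows of 300 bases, which add 50 bases after the start, were at hand for 73 of the 87 kept genes. The NRF1 core, spelled GCGCNTGCG and searched on both strands, was in the windows of 26 of the 73 (35.6%), of 16.1% of 8787 protein-coding genes tested and of 9.68% of 17492 protein-coding genes. By complex, 9 of 32 complex I genes, 2 of 3 complex II genes, 2 of 4 complex III genes, 1 of 11 complex IV genes and 9 of 15 complex V genes held it. The remaining matches were in Cycs, Ndufaf4 and Ndufaf5, and Ndufaf5 was not called (log2 fold change -0.13). The YY1 core AAGATGGCG was in 8 of 73 windows (11.0%), against 3.82% of protein-coding genes tested. An ETS motif, CCGGAAGT, was in 4 of 73 (5.48%), against 9.8% of protein-coding genes tested, and the E-box CACGTG in 5 of 73 (6.85%), against 12.0%. All were searched on both strands, and a match is a stretch of letters, not a measured binding site.

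Complex I assembly comes first because it holds the one called gene. Ndufaf4 (chromosome 4, 24898083 to 24905001) encodes a factor that helps build the complex and does not stay in it. Its levels were 221, 215, 209 and 222 CPM in RGX-104 replicates 5 to 8, against 182, 183, 188 and 195 CPM in control replicates 1 to 4. Every RGX-104 library lay above every control library. Ndufaf4 averaged 217 ± 6.04 CPM in RGX-104 and 187 ± 5.99 CPM in control (SD, n = 4 each), a log2 fold change of 0.21 ± 0.05 (± SE) with an edgeR adjusted p of 0.0335. Its 95% interval was 1.07-fold to 1.25-fold. The call was lost without any of 7 of the 8 libraries, with adjusted p between 0.0511 and 0.107, and held without control replicate 4 (0.0375); log2 fold changes in these fits stayed between 0.20 and 0.23.

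The other 7 Ndufaf genes were not called. Ndufaf2, a factor related in sequence to the subunit Ndufa12, was at 61.8, 57.1, 66.0 and 58.4 CPM in RGX-104, against 68.7, 71.6, 65.7 and 71.6 CPM in control. RGX-104 replicate 7 lay just above control replicate 3, so the groups overlapped. Its log2 fold change of -0.19 ± 0.08 had an adjusted p of 0.281 in edgeR. Ndufaf8 was at 68.0 ± 2.30 CPM in RGX-104 and 63.7 ± 4.23 CPM in control. Summed over the 8 genes, the Ndufaf group reached 437 to 455 CPM in RGX-104 and 415 to 429 CPM in control. Without Ndufaf4 the sums were 221 to 246 CPM in RGX-104 and 232 to 238 CPM in control and overlapped.

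Complex I, the NADH dehydrogenase, had 0 of 36 kept genes called in either direction. Log2 fold changes ran from -0.11 to 0.18 with a median of 0.03, and 21 of 36 were above 0, where 50.6% of all genes tested were. Ndufb10 (chromosome 17, 24722060 to 24724423), an accessory subunit of the membrane arm, had the smallest p of the complex. It was at 84.3, 88.2, 85.7 and 90.4 CPM in RGX-104, against 78.2, 74.1, 79.9 and 78.0 CPM in control, and the groups did not overlap. Its log2 fold change of 0.17 ± 0.07 had an edgeR adjusted p of 0.269.

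Across all genes tested, 3.88% had all RGX-104 libraries above all control libraries and 4.32% had them all below. Among the 79 subunit genes 3 were in the first class (3.80%), namely Ndufb10, Uqcrc2 and Cox5a, and 0 in the second. Among genes averaging at least 20 CPM, 4.11% of the subunit genes and 6.04% of all genes were apart upward, and 0 subunit genes and 5.32% of all genes downward. In the same range of levels, 64.4% of the subunit genes and 55.1% of all genes had a log2 fold change above 0.

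Genes of the catalytic arm of complex I overlapped between the groups. Ndufv1, which binds NADH and takes up its electrons, was at 111 ± 5.28 CPM in RGX-104 and 112 ± 8.10 CPM in control, and its interval ran from 0.894-fold to 1.09-fold. Ndufs1, the largest iron-sulfur subunit, was at 77.2, 85.5, 85.4 and 87.9 CPM in RGX-104, against 80.0, 78.8, 83.3 and 69.1 CPM in control. Control replicate 4 was the lowest of these libraries and the groups overlapped (log2 fold change 0.11 ± 0.08, adjusted p 0.573 in edgeR). Ndufa12, an accessory subunit next to the catalytic arm, had the lowest log2 fold change of the complex: 307 ± 17.7 CPM in RGX-104 and 330 ± 18.5 CPM in control (log2 fold change -0.11 ± 0.06). Ndufc2, an accessory subunit of the membrane arm, was at 258 ± 9.28 CPM in RGX-104 and 256 ± 2.31 CPM in control. Ndufb6 was at 112 ± 7.06 CPM in RGX-104 and 102 ± 6.31 CPM in control.

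Complex II, the succinate dehydrogenase, also serves the citric acid cycle and is encoded entirely in the nucleus. Sdha, the flavoprotein that oxidises succinate, was at 199 ± 7.57 CPM in RGX-104 and 201 ± 12.7 CPM in control. Sdhb, which carries the iron-sulfur clusters, was at 214 ± 17.1 CPM in RGX-104 and 216 ± 15.7 CPM in control. For both, the log2 fold change was -0.01, and the intervals were 0.912-fold to 1.08-fold for Sdha and 0.902-fold to 1.09-fold for Sdhb. The membrane anchor gene Sdhc was at 80.6 ± 8.52 CPM in RGX-104 and 75.3 ± 10.1 CPM in control.

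Sdhd (chromosome 9, 50596340 to 50603849), the other membrane anchor, varied far more than the rest of the complex. Its levels were 36.3, 34.6, 16.5 and 28.8 CPM in RGX-104 replicates 5 to 8, against 13.1, 14.1, 21.1 and 28.1 CPM in control replicates 1 to 4. RGX-104 replicate 7 lay among the control libraries, and control replicate 4 lay close to RGX-104 replicate 8. The fitted log2 fold change was 0.60 ± 0.22 with an adjusted p of 0.199 in edgeR. Leaving out RGX-104 replicate 7 (log2 fold change 0.80, adjusted p 0.0409 in edgeR) or control replicate 4 (0.85, adjusted p 0.0463) moved it past the threshold, and over all 8 such fits the value ran from 0.46 to 0.85. Within groups its coefficient of variation was 30.8% in RGX-104 and 36.8% in control, where counting alone gives 4.94% and 5.84%. The median over the 87 kept genes was 6.32% in RGX-104 and 6.20% in control. The ratio of measured to counting variation was 6.23 for Sdhd in RGX-104 and 6.30 in control. Medians of this ratio over the 87 genes were 2.85 in RGX-104 and 2.71 in control. By it Sdhd ranked number 2 from the top in RGX-104 and number 4 in control, so other kept genes exceeded it. No near-identical transcript end was found for Sdhd elsewhere in the annotation.

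In complex III, the cytochrome bc1 complex, 7 of 8 kept genes had a log2 fold change above 0 and none was called. Uqcrh, the hinge protein that helps complex III dock cytochrome c, was at 309, 335, 337 and 350 CPM in RGX-104, against 319, 279, 305 and 291 CPM in control. RGX-104 replicate 5 lay below control replicate 1. Its log2 fold change was 0.16 ± 0.06 (edgeR adjusted p 0.175). Uqcrc2 (chromosome 7, 120635189 to 120659523), a core protein of the complex, was at 215, 211, 215 and 218 CPM in RGX-104, against 206, 195, 197 and 196 CPM in control, with no overlap and a log2 fold change of 0.12 ± 0.05 (adjusted p 0.317). Exons of Uqcrc2 share 504 bp with those of Pdzd9 on the opposite strand.

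Uqcrfs1, the Rieske iron-sulfur protein, was at 179, 184, 209 and 211 CPM in RGX-104, against 156, 202, 166 and 163 CPM in control. Control replicate 2 alone reached into the RGX-104 range; without it the log2 fold change was 0.28 with an edgeR adjusted p of 0.0391, and with all libraries 0.19 ± 0.08 with an adjusted p of 0.241. Cyc1, cytochrome c1, was at 164 ± 14.3 CPM in RGX-104 and 163 ± 7.99 CPM in control. Uqcrq, a small accessory subunit, was at 493 ± 26.5 CPM in RGX-104 and 484 ± 21.6 CPM in control.

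Cytochrome c (Cycs) ferries electrons from complex III to complex IV and also triggers apoptosis when it leaves mitochondria. It was at 88.4, 69.8, 60.7 and 75.1 CPM in RGX-104, against 83.9, 76.8, 82.1 and 71.0 CPM in control. The RGX-104 libraries held both the highest and the lowest value. Its log2 fold change was -0.10 ± 0.10 (adjusted p 0.730 in edgeR), with an interval of 0.815-fold to 1.08-fold.

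Complex IV, cytochrome c oxidase, had log2 fold changes above 0 for 7 of 14 kept genes and a median of 0.01, which ran from -0.02 (without control replicate 1) to 0.03 (without RGX-104 replicate 5) when single libraries were left out. Cox5a (chromosome 9, 57517328 to 57532427), a structural subunit, had the smallest p of all subunit genes. It was at 402, 425, 405 and 435 CPM in RGX-104, against 386, 370, 375 and 369 CPM in control. All RGX-104 libraries were above all control libraries. The log2 fold change was 0.15 ± 0.05, with an interval of 1.04-fold to 1.19-fold; the edgeR adjusted p was 0.109, and DESeq2 gave an adjusted p of 0.0167. Its exons share 269 bp with Gm26631 on the opposite strand. Cox4i1, the main regulatory subunit, was at 307 ± 23.4 CPM in RGX-104 and 301 ± 17.2 CPM in control. Cox7c, a small subunit, was at 494 ± 20.3 CPM in RGX-104 and 506 ± 57.2 CPM in control.

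**Figure D3:**
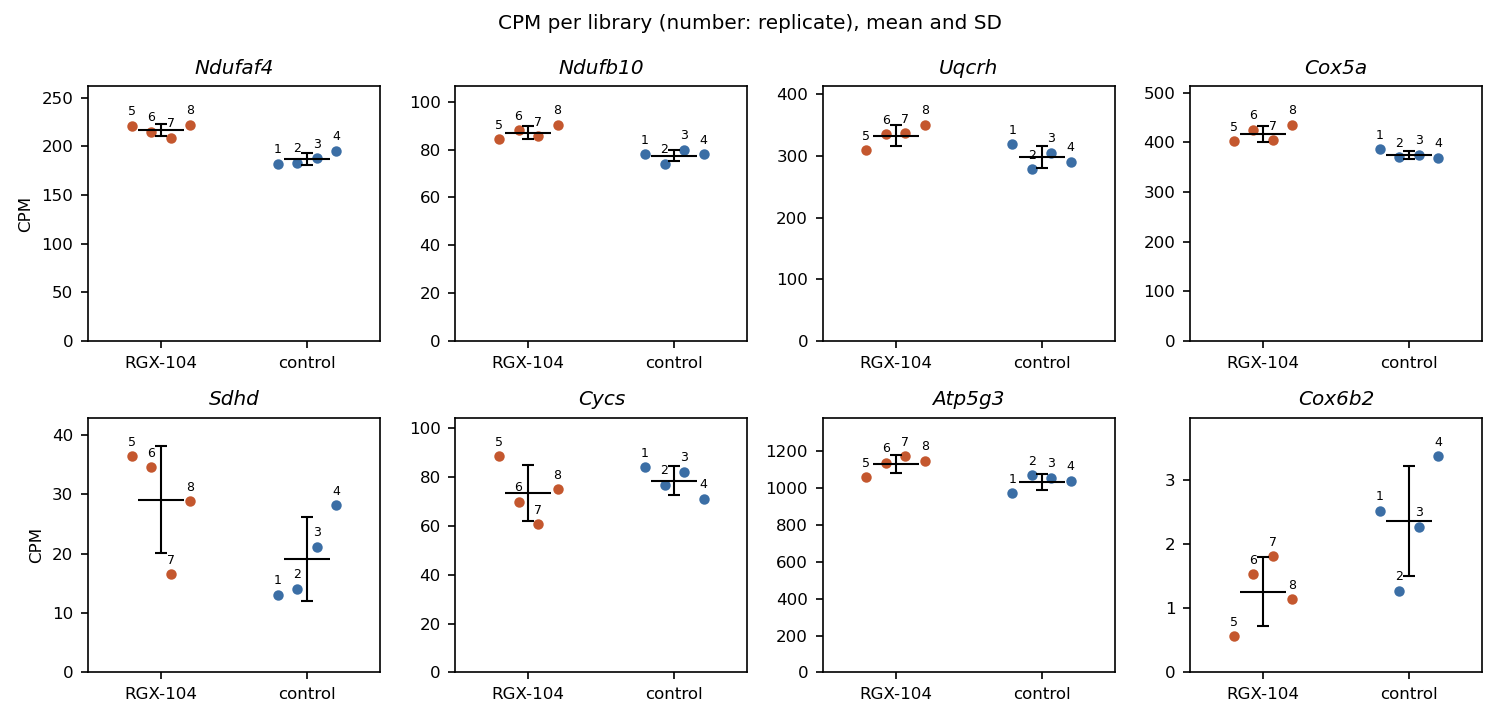
CPM (y axis, from 0) of 8 genes in each library, RGX-104 left and control right; points are libraries with their replicate number, and the bar and whiskers are mean and SD. Ndufaf4, Ndufb10 and Cox5a are apart between the groups by small steps, while Sdhd spreads from 13.1 to 36.3 CPM with overlap.

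Several complex IV subunits exist as tissue forms, and both forms are given where they were kept. Cox6a1 was at 330.0 ± 10.4 CPM in RGX-104 and 325 ± 15.7 CPM in control, while its heart and muscle form Cox6a2 was at 1.122, 1.11, 1.47 and 0.533 CPM in RGX-104, against 1.81, 1.28, 2.02 and 2.05 CPM in control. Cox6b1 was at 287 ± 12.2 CPM in RGX-104 and 279 ± 8.46 CPM in control. The testis form Cox6b2 was at 0.561, 1.53, 1.81 and 1.14 CPM in RGX-104, against 2.52, 1.28, 2.27 and 3.37 CPM in control. Both minor forms overlapped between the groups, and their log2 fold changes of -0.74 ± 0.45 and -0.90 ± 0.45 rest on 7 to 51 counts per library (edgeR adjusted p 0.494 and 0.385).

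Cox7a2 was at 358 ± 22.2 CPM in RGX-104 and 363 ± 13.5 CPM in control, and Cox7a1, its heart and muscle form, at 0.736 ± 0.351 CPM in RGX-104 and 0.591 ± 0.462 CPM in control. Cox7a2l, which joins complexes III and IV into supercomplexes, was at 88.6 ± 4.18 CPM in RGX-104 and 91.5 ± 6.57 CPM in control. Cox8a was at 240.1 ± 20.1 CPM in RGX-104 and 258 ± 29.7 CPM in control. Cox8b, its muscle form in rodents, had 1 to 6 counts per library and Cox4i2, the lung form of Cox4i1, 1 to 7, both under the count rule. Cox8c is listed at 0, which is not read as absent RNA. If that 0 is a true count, counting alone allows up to 3 counts, or 0.189 to 0.229 CPM, in a library. Ndufa4, counted with complex I by its symbol although it was later assigned to complex IV, was at 93.2 ± 12.1 CPM in RGX-104 and 98.7 ± 12.3 CPM in control, while its hypoxia-induced relative Ndufa4l2 had 0 to 2 counts per library.

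Complex V, the ATP synthase, had 13 of 16 kept genes with a log2 fold change above 0 and the highest median of the large complexes, 0.07. None of the 16 was called. Atp5b, the catalytic beta subunit, was at 849, 839, 830 and 906 CPM in RGX-104, against 799, 906, 841 and 832 CPM in control (interval 0.948-fold to 1.08-fold). Atp5md, a small membrane subunit, was at 206 ± 16.2 CPM in RGX-104 and 185 ± 16.2 CPM in control (log2 fold change 0.16 ± 0.07, adjusted p 0.314 in edgeR). Atp5j2, the f subunit, was at 300.1 ± 25.7 CPM in RGX-104 and 277 ± 3.16 CPM in control.

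The ring of c subunits, which turns as protons pass, comes from 3 genes that encode the same mature protein. Atp5g3 (chromosome 2, 73908447 to 73912464) was at 1058, 1137, 1172 and 1149 CPM in RGX-104, against 971, 1069, 1057 and 1041 CPM in control. RGX-104 replicate 5 lay below control replicate 2, and the other RGX-104 libraries lay above all controls (log2 fold change 0.13 ± 0.04, edgeR adjusted p 0.179). Atp5g1 was at 156 ± 4.27 CPM in RGX-104 and 160 ± 7.63 CPM in control. Atp5g2 was at 3.504 ± 1.05 CPM in RGX-104 and 3.37 ± 0.635 CPM in control, and 2 other annotated genes carry its transcript end at 100% identity over 300 bases.

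Summed over a complex, the libraries of the groups overlapped for complexes I to V and for cytochrome c. Complex I summed to 4504 to 4797 CPM in RGX-104 and 4552 to 4683 CPM in control. For complex II the sums were 498 to 543 CPM in RGX-104 and 490.1 to 546 CPM in control. Complex III summed to 1860 to 2062 CPM in RGX-104 and 1810 to 1907 CPM in control, complex IV to 3228 to 3554 CPM in RGX-104 and 3182 to 3454 CPM in control, and complex V to 4683 to 5120 CPM in RGX-104 and 4573 to 4829 CPM in control. All 79 subunit genes together averaged 15500 ± 539 CPM in RGX-104 and 15110 ± 273 CPM in control, a difference of 2.58%.

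**Figure D4:**
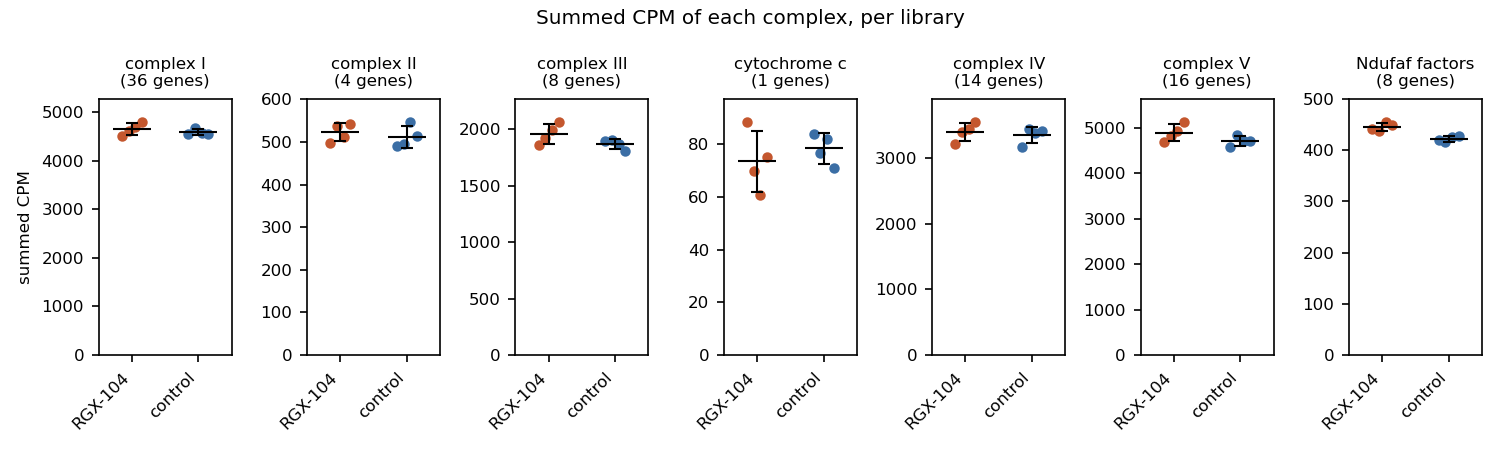
Summed CPM (y axes, each from 0) of the kept genes of each complex, 1 point per library, RGX-104 left and control right, with mean and SD. In complexes I to V and cytochrome c the groups overlap; the Ndufaf sums do not, at 437 to 455 CPM in RGX-104 and 415 to 429 CPM in control.

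The difference between the groups was smaller than the spread among the RGX-104 libraries. Subunit genes together reached 14860, 15360, 15640 and 16150 CPM in RGX-104 replicates 5, 6, 7 and 8, against 14780, 15440, 15150 and 15080 CPM in control replicates 1 to 4. The median subunit gene lay -0.02, 0.01, 0.04 and 0.10 log2 units from its control mean in the same RGX-104 libraries, while the median of all genes tested stayed at 0.01 or less. Among the RGX-104 libraries, the sums of complexes I, III, IV and V were all lowest in replicate 5 and all highest in replicate 8; for complexes III, IV and V, 1 control library lay lower still. Replicate 5 had the highest share of mitochondrial rRNA among the RGX-104 libraries (4.84%) and replicate 8 the lowest (3.99%); the part of this in the subunit levels was not tested. Without RGX-104 replicate 8, 55.7% of the subunit genes had a log2 fold change above 0, and without replicate 5, 75.9%, beside 63.3% with all libraries.

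**Figure D5:**
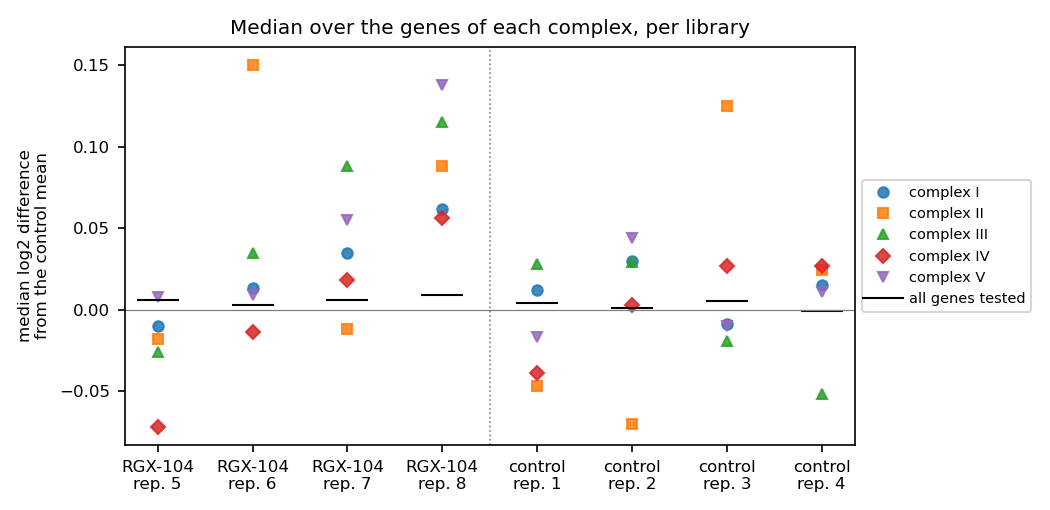
Median over the kept genes of each complex of the log2 difference from the control mean (y axis), for each library (x axis, RGX-104 left of the dotted line), with the median of all genes tested as a bar. Complexes I, III, IV and V are lowest in RGX-104 replicate 5 and highest in replicate 8 among the RGX-104 libraries, and complex II does not follow them.

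Further lists of genes that build, feed or regulate the respiratory chain held 0 calls by edgeR with all libraries; DESeq2, and edgeR without control replicate 4, called carrier genes, given below. Of 48 tested assembly factors outside the Ndufaf group (10 for complex I, 4 for II, 6 for III, 23 for IV and 5 for V), 0 were higher and 0 lower by edgeR, with 4 higher and 1 lower at an unadjusted p under 0.05. At that level 6.28% of all genes tested were higher and 7.52% lower. Sco1, which delivers copper to complex IV, was at 57.2, 59.4, 49.4 and 50.8 CPM in RGX-104, against 73.7, 60.4, 61.4 and 66.7 CPM in control. The groups were apart, with a log2 fold change of -0.27 ± 0.09 and an adjusted p of 0.143 in edgeR. Among all genes tested, 4.32% were apart in that direction. For Tmem70, an assembly factor of the ATP synthase, the log2 fold change was 0.22 ± 0.08 (edgeR adjusted p 0.224). Nubpl, Sdhaf3 and Ttc19, the members with the smallest p for complexes I, II and III, had log2 fold changes of 0.35, 0.47 and -0.14 and adjusted p from 0.392 to 0.613 in edgeR.

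Of 19 tested genes of the citric acid cycle and pyruvate entry, 0 were called, with Dld, a subunit shared by several dehydrogenases, at -0.18 ± 0.08 on the log2 scale (edgeR adjusted p 0.319). Among 18 genes of ubiquinone synthesis and other electron entry 0 were called, with Pdss1, which makes the side chain of ubiquinone, at 0.31 ± 0.15 (adjusted p 0.359). The carrier list held 6 genes and 0 calls by edgeR, while DESeq2 called 2, Slc25a5 and Vdac2, a channel of the outer membrane (log2 fold change 0.15, DESeq2 adjusted p 0.0367; named after its value was seen). Over all genes, DESeq2 called 3.66% of those it tested. In the edgeR fit, 5 of the 6 carriers had a log2 fold change above 0. The 1 below 0, Vdac3, was at -0.21 ± 0.09 (edgeR adjusted p 0.302), also named after its value was seen. Its groups were apart, as were those of 4.32% of all genes tested in that direction. Slc25a5, an ADP/ATP carrier of the inner membrane, was at 648, 652, 609 and 651 CPM in RGX-104, against 526, 528, 565 and 635 CPM in control. Control replicate 4 was the only control library within the RGX-104 range. Its log2 fold change was 0.18 ± 0.06, with an adjusted p of 0.0887 in edgeR and 0.0298 in DESeq2, and 0.25 with an edgeR adjusted p of 0.00886 without control replicate 4. Of 15 tested regulators of mitochondrial biogenesis 0 were called, with Pprc1, a relative of the coactivator PGC-1 alpha, at 0.20 ± 0.08 (adjusted p 0.277).

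The 12 matched rows under the count rule were Ndufa7, Ndufa11b, Ndufa4l2, Ndufb4b, Ndufb4c, Ndufs3, Uqcrc1, Cox4i2, Cox7b2, Cox8b, Cox8c and Atp5a1. Of these 7 are listed at 0 in all libraries, and 4 of the 7 (Ndufa7, Ndufs3, Uqcrc1 and Atp5a1) have a symbol that recurs with an appended number, so their 0 is not read as absent RNA. Rows with an appended number were left out by the symbol rule. No row used here therefore measures these 4 genes, and where their reads went was not tested. Among the kept genes, 21 of 86 with annotated transcripts had a near-identical end elsewhere (at least 75 aligned bases at 97% identity within the last 300), and 20 share at least 100 bp of exon with another gene, so their counts are uncertain; without strand in the counting, reads of genes on opposite strands cannot be told apart. Of the 6 subunit genes under 20 CPM, 3 were among these 21: Atp5l, with 9 such copies, Atp5g2 and Ndufs5. How reads with several matching places were counted is not given in the sources used here, and its part in the low counts was not tested.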

How the data were processed

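RNA of 8 libraries was counted per gene. A Lexogen 3′ FWD kit was used on total RNA, per the labels' protocols, so reads mark transcript ends. The values are raw counts that the authors deposited; STAR 2.7.8a, R 4.1.0, DESeq2 1.4 and the build GRCm38 appear, per the submitters' processing notes. The counting tool, the strand setting and molecular identifiers: not given in the sources used here. Bounds and coefficients of variation given for counting alone cover counting error only. The intervals of fold changes come from the quasi-likelihood fit and also reflect the spread among libraries. Columns were matched to samples by number and group word (0 columns belonged elsewhere).

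Counts were tested here with edgeR 4.0.16 (R 4.3.3): filterByExpr, TMM, quasi-likelihood F test, group as the only term, 12162 genes, two-sided, threshold 0.05. CPM use TMM-scaled totals. SE is the log2 fold change divided by the square root of F, and 95% intervals use the fit's degrees of freedom. The biological coefficient of variation was 14.5%. Chi-square over degrees of freedom was 6.60 to 10.1 for library pairs of 1 group, so none was a repeat deposit. The fit was also run on simulated data with known changes, and its outcome is not given here. Transcript ends were compared with blastn 2.17.0 in GENCODE M21. Alternatives used DESeq2 1.42.0 and limma 3.58.1, other filters and scalings, and left-out libraries. Coordinates are RefSeq GRCm38.p6. Promoter motif cores were set after longer spellings had been searched.

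Members and lists were chosen with earlier results of these data known. Named genes were, per complex, the 3 with the smallest p, the 2 highest in CPM, and fixed catalytic and isoform genes; per further list, up to 3 called members or otherwise the 1 with the smallest p.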

Additional observations from a re-analysis of the deposited data

Results flagged for a closer look

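In 110 groups of 4 libraries checked, 4 held a library far from the other 3 (by the gap to the nearest of them over the range), where chance gives about 1 in 20. Ndufb6 was at 111 CPM in control replicate 2 and at 97.4 to 99.6 CPM in the other controls. Uqcrc2 was at 205.5 CPM in control replicate 1 and at 195.2 to 196.5 CPM in the other controls. Slc25a5 was at 609 CPM in RGX-104 replicate 7 and at 648 to 652 CPM in the other RGX-104 libraries. The complex I sum was 4683 CPM in control replicate 2 and 4552 to 4567 CPM in the other controls.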

How the results depend on the processing

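No paired analysis was possible because the labels give only running sample numbers and name no pairing between the groups. With DESeq2, 172 genes were higher in RGX-104, against 108 with edgeR, and 1 subunit gene (Cox5a) was called in place of 0. Leaving out each library in turn gave 57 to 93 genes higher and 144 to 211 lower over all genes, 0 to 1 subunit genes higher (Uqcrfs1 without control replicate 2, Sdhd without control replicate 4 or RGX-104 replicate 7) and 0 lower, and 0 to 1 Ndufaf genes higher. The median log2 fold change of the Ndufaf genes then ran from -0.0807 to 0.0242, that of all subunit genes from 0.01 to 0.04, of complex I from 0.00626 to 0.0409, II from 0.0135 to 0.0860, III from 0.0125 to 0.0493, IV from -0.0205 to 0.0271 and V from 0.0363 to 0.0754. In the same fits the log2 fold change crossed 0, with edgeR adjusted p of at least 0.423, for Ndufc2 (-0.0086 to 0.0276), Ndufv1 (-0.0613 to 0.0200), Ndufa4 (-0.145 to 0.00533), Sdha (-0.0366 to 0.0322), Sdhb (-0.0660 to 0.0266), Cyc1 (-0.0302 to 0.0576), Uqcrq (-0.00782 to 0.0547), Cox4i1 (-0.0176 to 0.0690), Cox6a1 (-0.000492 to 0.0482), Cox7a1 (-0.102 to 0.512), Cox7a2 (-0.0479 to 0.0190), Cox7c (-0.105 to 0.0243), Atp5b (-0.00835 to 0.0553) and Atp5g2 (-0.0592 to 0.246). Over all alternatives, 604 of 643 values of the 46 named genes kept their direction and their side of the threshold. Counting alone gives coefficients of variation of 23.6% in RGX-104 and 16.6% in control for Cox6b2, where 42.8% and 36.5% were measured in these groups.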
